A study of Drosophila melanogaster with 6 samples.

Results

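The GATA factors of *Drosophila melanogaster* and their cofactor U-shaped were read in embryos mutant for insensitive (insv) and in wild-type embryos. The genes were taken by symbol: the 5 GATA factor genes srp, GATAe, pnr, grn and GATAd, and ush. Each was measured by 1 probe set (a group of short probes read as 1 value), so 6 of 18769 fly probe sets, and 6 of 11982 uniquely named genes, made up the group. Total RNA of whole embryos aged 6 to 8 h at 25 °C was hybridised to 6 Affymetrix arrays. The mutant group held 3 arrays of embryos with the insv[23B] allele, and the wild-type group held 3 arrays of w[1118] embryos. Nothing in the labels ties the arrays of a genotype to separate egg collections, so the p-values rest on array-to-array spread that could be purely technical.

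GATA factors are zinc-finger proteins that bind the DNA sequence for which they are named and switch on genes of whole tissues. In the fly embryo, Serpent (srp) directs endoderm, blood cell and fat body fates, and GATAe acts after it in the midgut. Pannier (pnr) patterns the dorsal ectoderm and the heart precursors, and Grain (grn) shapes organs such as the posterior spiracles and guides motor neurons. U-shaped (ush) is a zinc-finger protein of the Friend of GATA (FOG) class that binds Pannier and Serpent and changes what they do to their targets. Insensitive is a BEN-domain corepressor of the nucleus that partners with the Notch pathway factor Suppressor of Hairless. The comparison asks which transcripts differ when insv is mutated.

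On the deposited scale the differences of the 6 genes (insv minus wild type) ran from -0.40 for GATAd to 0.10 for srp (log2). With a scale set by the spike-in controls all 6 were higher in the mutant, by 0.99 to 1.49 (log2). On that spike-in scale 92.6% of tested probe sets were called higher. On the deposited scale GATAd was 1.32-fold lower in the insv mutant and pnr 1.15-fold lower, beside 40.8% of tested probe sets called lower. The genes srp, GATAe, grn and ush did not pass the test. The largest difference of the 6 was -0.40 on the log2 scale (insv minus wild type), and 39.9% of the 8334 tested probe sets differed by more than that in either direction. Of all tested probe sets, 16.2% differed by at least 2-fold. A probe set was tested if 3 or more arrays gave it a log2 level of 4 or higher; the 6 genes reached this on every array, far above the floor of 2.2 at which the deposited values end. In whole embryos, fewer cells of a type and less RNA per cell cannot be told apart.

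The insv probe set itself read 4.0, 3.6 and 4.2 on the mutant arrays, against 10.9 on each wild-type array, so its level matched the labels. Between 8295 and 8312 probe sets reached 4 on the mutant arrays and between 7821 and 7883 on the wild-type arrays. The Bacillus spike-in controls, added from outside the embryo, were lower on every mutant array, with means of 7.33 to 7.80 against 8.54 to 9.41 on the wild-type arrays (23 probe sets above the filter). Wild-type replicate 3 had the highest of these means. Genes of late embryonic differentiation, such as muscle and cuticle genes, averaged 9.02 to 9.08 on the mutant arrays and 6.13 to 6.15 on the wild-type arrays. All 13 tested of 14 measured were called higher in the mutant. Over all 6932 tested genes, each by its brightest probe set, 24.9% were called higher and 41.7% lower. Of 5 tested maternal genes 2 were higher, osk (0.63) and mtrm (1.33), and 3 lower, plu (-3.13), tor (-1.47) and bcd (-1.20). The 2 dimmer probe sets of osk read 0.43 (limma adjusted p = 0.0133) and 0.17 (limma adjusted p = 0.224, not called). Genes of the cellularization stage averaged 4.18 to 4.32 on the mutant arrays and 4.80 to 4.88 on the wild-type arrays, with all 3 tested of 5 measured lower and nullo and bnk under 3 on every array. The part of these differences in the values below was not tested.

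Serpent, the factor for endoderm, blood and fat body, was read by probe set 1629229_a_at, whose suffix marks probes shared by several transcripts of a gene. It had log2 levels of 11.7, 11.9 and 11.9 on the mutant arrays, against 11.7, 11.6 and 11.9 on the wild-type arrays. The groups overlapped, and the highest value, 11.9, occurred in both. The difference was 0.10 ± 0.10 (SE; 95% interval -0.15 to 0.35; limma adjusted p = 0.415).

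GATAe, which lies beside srp and pnr in the gene order, showed the narrowest spread (probe set 1626499_at). It read 8.2 on all 3 mutant arrays, against 8.2, 8.2 and 8.3 on the wild-type arrays. A single step of the rounding, on 1 wild-type array, was all that set the groups apart. The difference was -0.03 ± 0.04 (SE; 95% interval -0.13 to 0.06; limma adjusted p = 0.446).

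Pannier, the factor of the dorsal ectoderm and heart, was slightly lower in the mutant (probe set 1634370_a_at). It read 9.8 on all 3 mutant arrays, against 9.9, 10 and 10.1 on the wild-type arrays. The groups did not overlap, but the nearest values lay 1 rounding step apart. The difference of -0.20 ± 0.06 (SE; 95% interval -0.34 to -0.06) passed the threshold of 0.05 (limma adjusted p = 0.0236). The call was lost on leaving out any 1 mutant array, or wild-type replicate 2 (limma adjusted p of 0.0667 to 0.0689). It was also lost after quantile normalization (-0.10, limma adjusted p = 0.174) and after centring arrays on their median (-0.10, limma adjusted p = 0.165).

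Grain had the same mean difference as pnr with a wider spread (probe set 1632681_at). It read 10.1, 10.2 and 10.3 on the mutant arrays, against 10.2, 10.4 and 10.6 on the wild-type arrays. The groups overlapped at 10.2 to 10.3, and the single highest value was that of wild-type replicate 3. The difference was -0.20 ± 0.12 (SE; 95% interval -0.49 to 0.09; limma adjusted p = 0.178). Although only pnr passed, the log2 level of pnr minus that of grn averaged -0.40 ± 0.10 on the mutant arrays and -0.40 ± 0.10 on the wild-type arrays (SD, n = 3 each), the same in both genotypes.

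GATAd had the largest difference of the 6 (probe set 1626899_at). It read 9.3, 9.1 and 9.3 on the mutant arrays, against 9.7, 9.5 and 9.7 on the wild-type arrays. Every mutant value lay below every wild-type value, by at least 2 rounding steps. The difference was -0.40 ± 0.09 (SE; 95% interval -0.62 to -0.18; limma adjusted p = 0.0105). With any 1 array left out it stayed between -0.47 and -0.33 and kept its call (limma adjusted p of 0.0112 to 0.0429), and it was -0.30 after quantile normalization and after median centring (limma adjusted p = 0.0219 and 0.0282).

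U-shaped, the FOG-class partner of Pannier and Serpent, read 9.7 on all 3 mutant arrays (probe set 1632698_at), against 9.6, 9.6 and 9.8 on the wild-type arrays. The mutant value lay between the wild-type values. The difference was 0.03 ± 0.06 (SE; 95% interval -0.13 to 0.19; limma adjusted p = 0.654). Without wild-type replicate 3 the difference was 0.10 and passed (limma adjusted p = 0.00259), with no spread left within either genotype at the rounding of the deposited values.

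**Figure D1:**
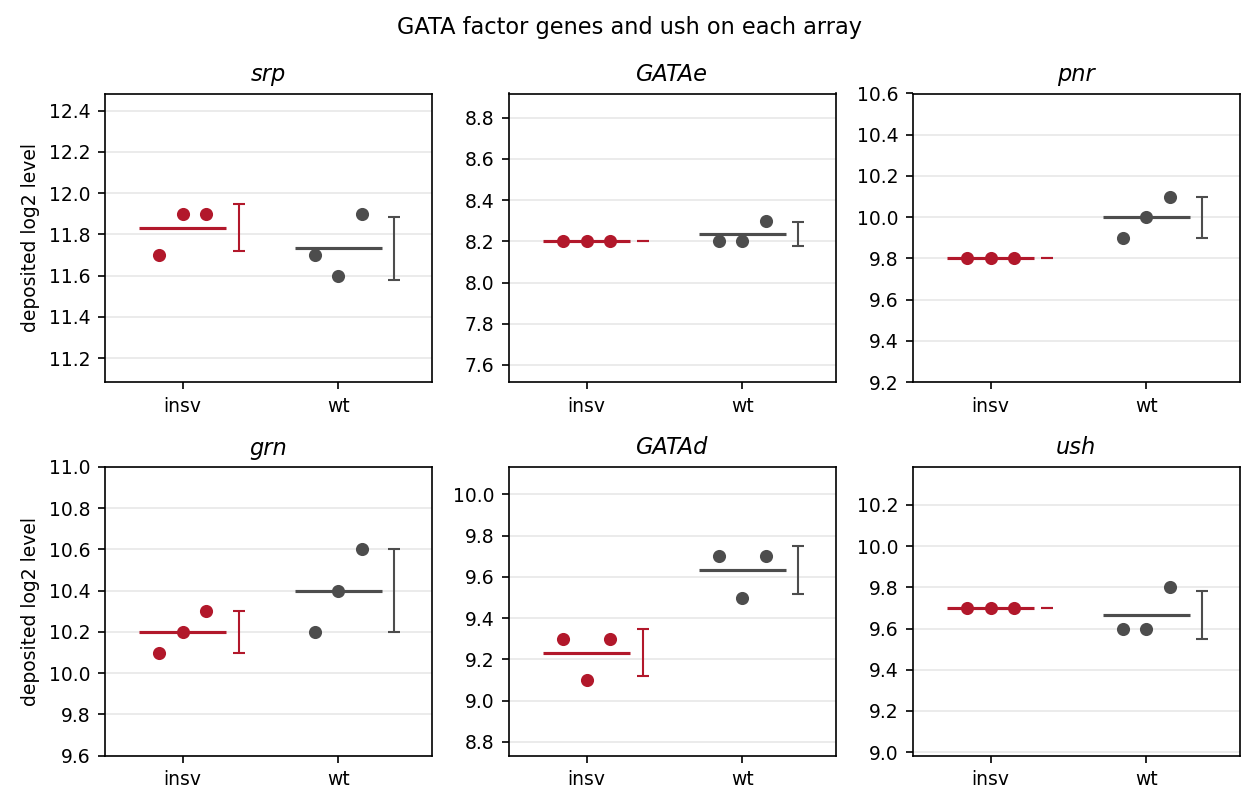
Deposited log2 level of each gene (vertical axis, the same span of 1.4 in every panel) on the 3 insv and 3 wt arrays; points are arrays, lines are means and bars show the SD. The insv and wt points are apart only for pnr (9.8 against 9.9 to 10.1) and GATAd (9.1 to 9.3 against 9.5 to 9.7).

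Read together, 0 of the 6 genes were called higher and 2 lower. Over all tested probe sets 65.5% were called, 24.7% higher and 40.8% lower, so the share called lower among the 6 lay near the background. The mutant and wild-type values failed to overlap for 2 of the 6 genes, both lower, where 65.6% of tested probe sets did not overlap and 40.7% were lower without overlap. After median centring 0 of the 6 were higher and 1 lower, where 31.0% of tested probe sets were called higher and 29.2% lower (60.2% in all). After quantile normalization the 6 genes again gave 0 higher and 1 lower, beside 24.6% higher and 42.3% lower (67.0% in all). Over all tested probe sets, the share called was 58.7%, 56.5% and 56.7% without mutant replicate 1, 2 and 3 in turn, and 58.4%, 61.8% and 68.6% without wild-type replicate 1, 2 and 3. It was 26.1% with no filter, 66.1% with the filter at 6, 66.2% with an intensity trend, 65.4% with a robust prior, 78.0% with array weights, 62.8% with the replicate block and 64.9% with noise within the rounding.

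By size, most of the 6 differences lay in the lower part of the distribution over all tested probe sets. The difference of GATAd was larger in size than that of 57.0% of tested probe sets, those of pnr and grn larger than 32.5%, that of srp larger than 16.3%, and those of GATAe and ush larger than 3.49%. The median over all tested probe sets was -0.10, with quartiles of -0.37 and 0.20, and GATAd alone of the 6 lay outside the quartiles. Relative to that median, as median centring gives it, the differences were 0.20 for srp, 0.13 for ush, 0.07 for GATAe, -0.10 for pnr and grn and -0.30 for GATAd. On the deposited scale, no interval of the 6 genes reached a doubling or a halving.

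**Figure D2:**
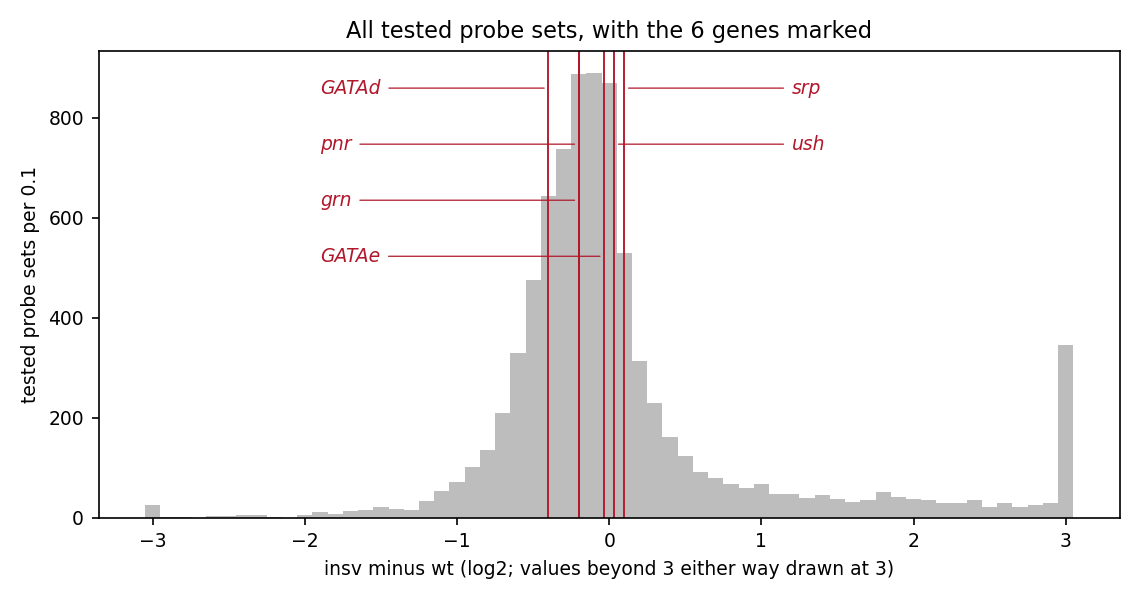
Number of tested probe sets (vertical axis, per 0.1) by log2 difference, insv minus wt, with a line at each of the 6 genes; values beyond 3 either way are drawn at 3. The lines lie between -0.40 (GATAd) and 0.10 (srp), around the median of -0.10.

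For GATAe, pnr, grn and GATAd the sign of the difference depended on the scale used to line up the arrays, and for srp and ush it stayed positive. When each array was shifted so that the Bacillus spike-ins agreed, all 6 genes were called higher in the mutant, as were 92.6% of tested probe sets (0.612% lower, 93.2% called in all), and the median over all probe sets was 1.29. On that scale the difference was 1.49 for srp, 1.42 for ush, 1.35 for GATAe, 1.19 for pnr, 1.19 for grn and 0.99 for GATAd (limma adjusted p of 2.16e-05 to 0.00354). The order of the genes by difference was the same as on the deposited scale, because the shift is 1 constant per array. Whether the deposited or the spike-in scale fits the embryos was not tested.

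**Figure D3:**
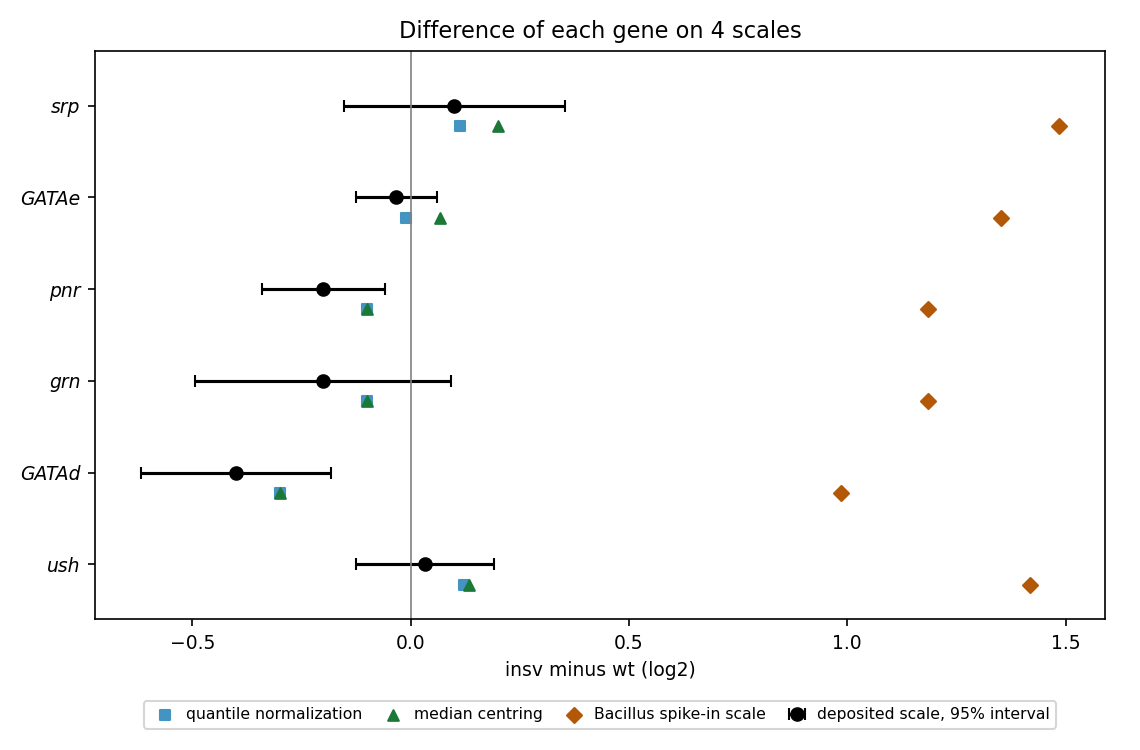
Log2 difference, insv minus wt (horizontal axis), of each gene on the deposited scale with its 95% interval, after quantile normalization, after median centring and on the Bacillus spike-in scale. On the first 3 scales the values run from -0.40 to 0.20, and on the spike-in scale from 0.99 to 1.49.

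Differences between genes on the same array do not depend on such a shift. For each of the 15 pairs the log2 level of 1 gene minus that of the other was taken on every array. The values did not overlap between genotypes for 7 of the 15 pairs, where 68.6% of all pairs of tested probe sets did not. With 3 arrays against 3, no pair could have passed the exact test given below. GATAd minus ush was -0.4, -0.6 and -0.4 on the mutant arrays, against 0.1, -0.1 and -0.1 on the wild-type arrays, a change of -0.43 with no overlap. Srp minus GATAd was 2.4, 2.8 and 2.6 on the mutant arrays, against 2.0, 2.1 and 2.2 on the wild-type arrays, which at 0.50 was the largest change of the 15. Of the 5 pairs with GATAd, 3 did not overlap, and pnr minus GATAd (0.20) and grn minus GATAd (0.20) overlapped.

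For Pannier and its cofactor, pnr minus ush was 0.1 on all 3 mutant arrays, against 0.3, 0.4 and 0.3 on the wild-type arrays, a change of -0.23. Srp minus pnr differed by 0.30 and GATAe minus pnr by 0.17, again with no overlap. Srp minus ush, the other pair of a GATA factor and the FOG-class protein that binds it, overlapped, with a mean of 2.13 ± 0.12 on the mutant arrays and 2.07 ± 0.06 on the wild-type arrays (SD, n = 3 each).

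The smallest p that an exact permutation test can give with 3 arrays against 3 is 0.10 (two-sided), so none of the 15 pairs could reach 0.05. For each of the 7 pairs without overlap the exact p was 0.10, and 0.214 after Benjamini-Hochberg adjustment over the 15.

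Serpent, GATAe and pnr stand next to each other in the annotated gene order, with 2 noncoding RNA genes between srp and GATAe. The measured one of these, lncRNA:CR42839, was dim and not tested, at 3.3, 3.1 and 3.4 on the mutant arrays, against 4.2, 4.0 and 3.9 on the wild-type arrays. Its mutant values were all below its wild-type values, while GATAe beside it differed by -0.03. On the srp side, Hel89B (0.13, limma adjusted p = 0.0514) and mor, a subunit of the Brahma chromatin remodelling complex (0.00), did not pass. On the pnr side Jhbp4 was at the floor on every array, and Jhbp5 was lower in the mutant by 2.00-fold (-1.0 ± 0.05 SE, limma adjusted p = 3.71e-05).

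The nearest measured genes around grn, GATAd and ush were not always adjacent to them. On one side of grn, with 6 annotated genes between, Arl8, a small GTPase of lysosomes, differed by -0.70 (limma adjusted p = 0.000849) and CG9667, the next gene out, by -0.47 (limma adjusted p = 0.0019), and on the other side lncRNA:CR43302 and CheA84a were at the floor. Beside GATAd, Cox10, which acts in heme a synthesis, differed by -0.30 (limma adjusted p = 0.0032), SamDC, an enzyme of polyamine synthesis, by -0.37 and -0.63 on its 2 probe sets, and CG31715 by -0.87, while Schip1 (-0.20) did not pass. Beside ush, cbt, a zinc-finger transcription factor, was higher by 0.37 (limma adjusted p = 0.00637), MED15, a Mediator subunit, differed by -0.23 (limma adjusted p = 0.0032), Spp (0.03), with 4 genes between, did not pass, and CG4297 was near the floor. Among the neighbours of all 6 genes, leaving out the 6 themselves, 1 of 13 tested probe sets was higher and 8 were lower. Over all tested probe sets 24.7% were higher and 40.8% lower.

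**Figure D4:**
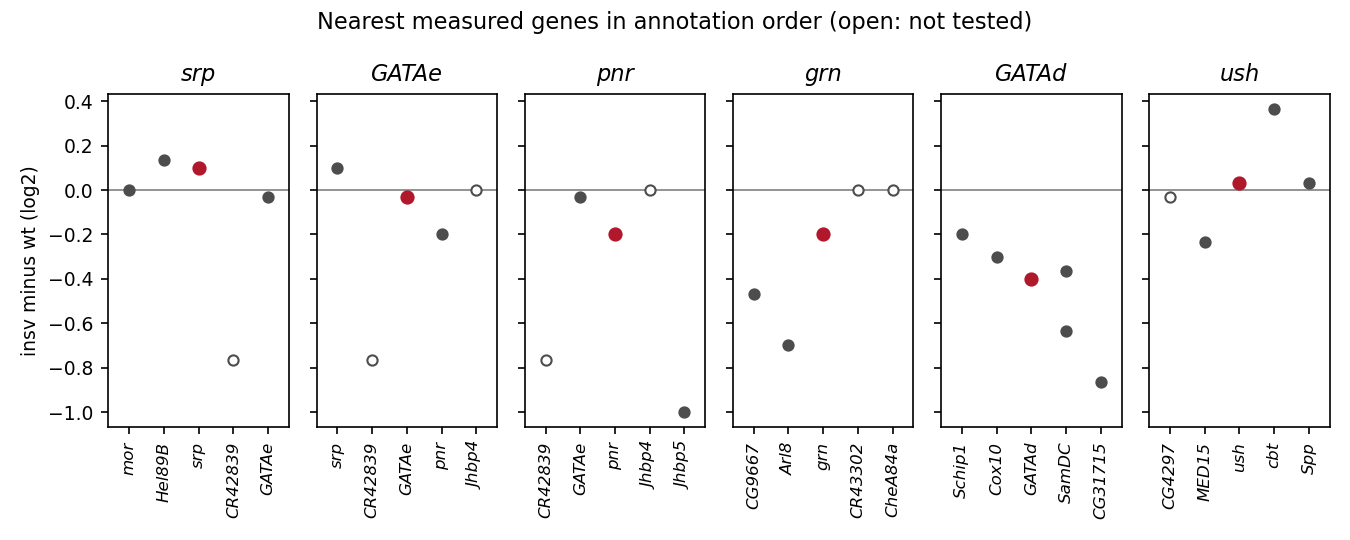
Log2 difference, insv minus wt (vertical axis), of each gene (red) and of the nearest 2 measured genes on each side in annotation order; open circles were not tested. Beside GATAd all tested neighbours were negative, from -0.20 to -0.87, and beside srp the tested ones lay between -0.03 and 0.13.

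Other genes had 6-array profiles equal or close to those of the called genes. For pnr the profile over the 6 arrays, centred on its own mean, was matched exactly by oaf and CG17598 and most nearly after them by Pgm2a (Euclidean distance 0.0913, log2). For GATAd it was matched exactly by CG6695, with CG4554 and luna at a distance of 0.0913. Within a distance of 0.25 there were 1275 uniquely named probe sets for pnr and 384 for GATAd. That limit is wide beside the small difference of pnr (-0.20), so its count takes in nearly flat profiles. The 2 counts therefore cannot be compared, and they do not show how common such falls were.

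Cofactors of Pannier and U-shaped, and genes of tissues in which the GATA factors act, were read from 7 lists. Each gene was read by its brightest tested probe set, beside 66.6% of 6932 genes called (24.9% higher, 41.7% lower, median -0.13). The lists did not separate genes that act before a GATA factor from those that act after it. Among the cofactors of Pannier and U-shaped, including subunits of the NuRD complex with which U-shaped can act, 0 of 9 were higher and 2 lower, with a median of -0.13. The split was 2 higher and 1 lower after median centring and 1 higher and 1 lower after quantile normalization. The 2 were Chi, the LIM-domain binding protein that bridges Pannier to its partners, at 10.4 on each mutant array against 10.5 to 10.7 on the wild-type arrays (-0.20, limma adjusted p = 0.0236), and Caf1-55, a histone-binding subunit (-0.30, limma adjusted p = 0.0032). Without any 1 mutant array, or without wild-type replicate 1, only 1 of the 9 was called, and without wild-type replicate 3, 5 were. A second, dimmer probe set of the corepressor CtBP was lower (-0.57, limma adjusted p = 0.00433) where the brightest read 0.07, and one of Ssdp was lower (-0.27, limma adjusted p = 0.0135) where the brightest read -0.13.

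The largest differences in the 7 lists were in those of endoderm and midgut and of hemocytes, tissues that depend on Serpent. The tested genes of late embryonic differentiation, which are in none of the 7 lists, differed by 1.70 to 4.87. In the endoderm and midgut list 2 of 9 genes were higher and 0 lower (median 0.03), and after quantile normalization 2 were higher and 1 lower. They were Inx7, a gap junction gene, at 7.2 on each mutant array against 4.9 to 5.4 on the wild-type arrays (2.03 ± 0.13 SE, limma adjusted p = 0.000123), and mex1, a midgut gene (1.87 ± 0.12 SE, limma adjusted p = 0.000123). The endoderm factors hkb (-0.07) and fkh (-0.33, limma adjusted p = 0.0545) did not pass, and neither did Itgbn, an integrin of the midgut, at -0.50 (limma adjusted p = 0.0658), and without wild-type replicate 2, 4 of the 9 genes were called.

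In the hemocyte list 5 of 8 tested genes were higher and 2 lower (median 0.52). Of the 5, drpr had overlapping groups (0.20, limma adjusted p = 0.0496). The split was 4 higher and 2 lower with the replicate block and on leaving out any 1 array except wild-type replicate 3. With no filter it was 4 higher and 3 lower. The basement membrane genes vkg (3.80), Col4a1 (3.57) and SPARC (2.53) and the peroxidasin gene Pxn (0.83) had the smallest adjusted p (limma, 3.26e-06 to 0.00122). The 2 lower were gcm, a factor for blood cell and glial fates (-0.23, limma adjusted p = 0.0032), and crq, a scavenger receptor of hemocytes (-0.37, limma adjusted p = 0.00452). Hml, NimC1, eater, gcm2 and lz, blood cell markers, stayed under 3 on every array and were not tested. In the fat body list 1 of 3 tested genes was higher, the lipoprotein gene apolpp (0.37, limma adjusted p = 0.000621), and Fbp1, Fbp2 and Lsp2 were at the floor. The brightest probe set of svp, a nuclear receptor, read -0.03 and did not pass, and a dim one was lower by more (-1.07, limma adjusted p = 0.00454).

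In tissues that depend on Pannier, U-shaped and Grain, the brightest tested probe set of each gene showed small differences, from -0.53 to 0.20. Of 12 tested genes of the dorsal ectoderm and amnioserosa 1 was higher and 5 lower (median -0.10), among them tup (-0.27), egr (-0.27), C15 (-0.37) and tld, a protease that frees Dpp (-0.37; limma adjusted p of 0.00203 to 0.0112 for the 4). For tkv, a receptor of Dpp, the brightest probe set read 0.00 and another -1.50 (limma adjusted p = 9.14e-06). Of 5 tested cardiac mesoderm genes 1 was higher and 2 lower (median 0.03), namely Him (-0.37), Hand (-0.27) and lbl, which at 0.10 differed by 1 rounding step and lost its call when noise within the rounding was added (limma adjusted p = 0.28). The cardiac split turned round to 2 higher and 0 lower after median centring and with no filter, and was 1 higher and 4 lower after quantile normalization. The cardiac count was 1 on leaving out mutant replicate 2, mutant replicate 3, wild-type replicate 1 or wild-type replicate 2. Of 6 posterior spiracle genes 0 were higher and 1 lower, the ligand gene upd1 (-0.53, limma adjusted p = 0.00971; median -0.05), and 2 were called without mutant replicate 1. After median centring and after quantile normalization the spiracle list had 1 higher and 1 lower, and the dorsal list had 2 higher with 4 and 5 lower in turn. On the spike-in scale every tested gene of the 7 lists was called higher.

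**Figure D5:**
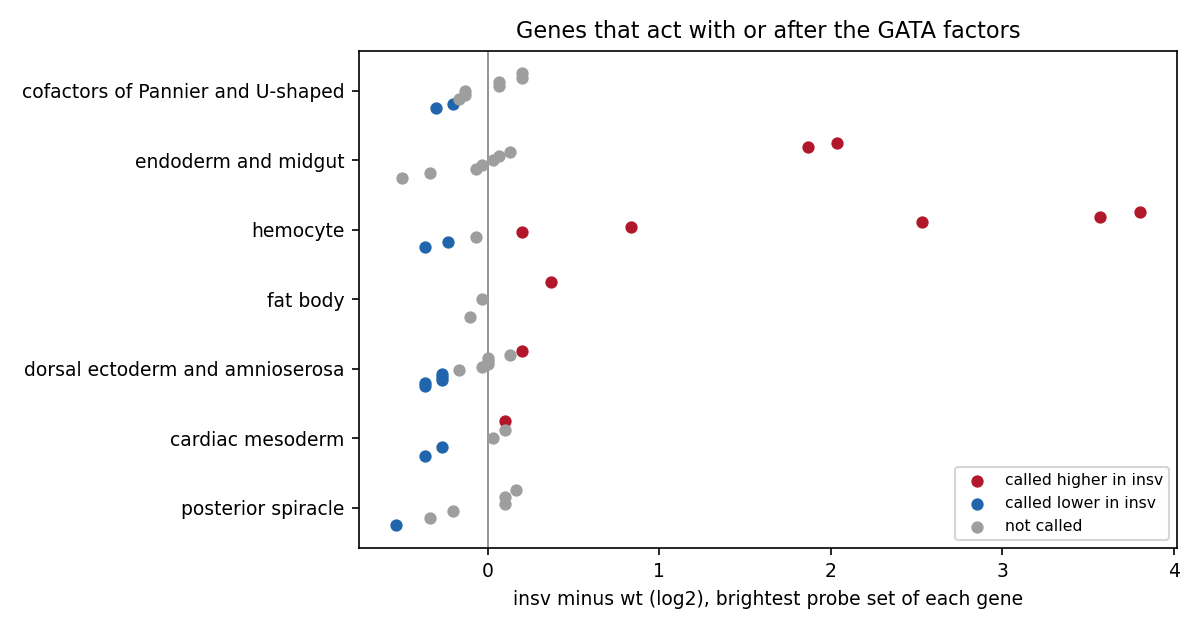
Log2 difference, insv minus wt (horizontal axis), of each tested gene in the 7 lists, by its brightest probe set; red was called higher in insv, blue lower and grey not called. Differences over 1 occur for Inx7 and mex1 in the endoderm and midgut list and for SPARC, Col4a1 and vkg in the hemocyte list.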

How the data were processed

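The deposited values are log2 levels that the authors made with GCRMA (background correction from probe sequence, normalization and 1 value per probe set), per the submitters' processing notes; the version and options are not given in the sources used here. They have 1 decimal and a floor of 2.2. Symbols came from the platform annotation, updated through gene identifiers with RefSeq Release 6 for 13544 of 13647 probe sets with 1 symbol; gene order came from the same table, and its coordinates were not used. Control probe sets, 183 in number, were not tested. Probe sets with at least 4 on at least 3 of 6 arrays were fitted with limma 3.58.1 in R 4.3.3 (lmFit, eBayes, no block), and a call needs an adjusted p below 0.05 (Benjamini-Hochberg across all 8334). The fit was run on simulated data with and without rounding to 1 decimal, and the limit on false calls was checked only without rounding. The number of arrays limits the precision, and no pair of arrays was identical (at most 43.1% of tested values equal). The 6 genes, the gene lists, the tests and the alternatives were chosen with earlier results of these data known. Genes named were the 6, insv, their nearest 2 measured neighbours on each side, the 3 nearest profiles of each called gene, and up to 4 called genes of each list with the smallest adjusted p; others were named after their values were seen. Genes of the lists with no uniquely named probe set, such as tin, Rpd3 and Abd-B, were not analysed here. Alternatives were other filters, scalings, variance models and array weights, a replicate block, each array left out, noise within the rounding (added after seeing the data) and, for lists, averaging the probe sets per gene. Same-numbered arrays of the genotypes did not deviate together throughout.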

Additional observations from a re-analysis of the deposited data

How the results depend on the processing

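The GATAd fall and its call held under every alternative but 1, the Bacillus spike-in scale, where GATAd was 0.99, pnr 1.19, grn 1.19 and GATAe 1.35, all reversed, and where srp (1.49) and ush (1.42) now passed. The pnr fall lost its call with no filter (-0.20, limma adjusted p = 0.0692), quantile normalization (-0.10), median centring (-0.10) and the replicate block (-0.20, limma adjusted p = 0.0506). With 1 array left out, pnr ranged from -0.25 to -0.15, ush from 0.00 to 0.10, srp from 0.03 to 0.18, grn from -0.30 to -0.10 and GATAe from -0.05 to 0.00. GATAe was 0.067 after median centring, still not called, and srp passed with array weights (0.17, limma adjusted p = 0.0492). Of the 6 genes, 1 was called lower with no filter, quantile normalization, median centring or the replicate block, 0 on the spike-in scale, and 1 to 2 with an array left out; those called higher numbered 6 on the spike-in scale, 1 with array weights and 0 to 1 with an array left out. The count over all probe sets ranged from 4710 to 5713 with an array left out. The cause was not tested, except that the spike-in scale adds 1 constant per array.

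Deviations of same-numbered arrays correlated at 0.17, -0.01 and 0.27 across probe sets, and those of differently numbered arrays at -0.29 to 0.20. With 3 arrays a genotype, these values cannot settle whether the replicate numbers pair the arrays. With the replicate block 5234 probe sets were called in place of 5459.

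Counts called in the lists moved as follows. The cofactor list had 1 with no filter or the replicate block, 9 on the spike-in scale, 6 with array weights and 1 to 5 with an array left out. The endoderm list had 9 on the spike-in scale, 4 with the robust prior, 6 with array weights, 4 with noise within the rounding and 2 to 4 with an array left out. The fat body list had 3 on the spike-in scale, 2 with array weights and 2 on averaging the probe sets per gene, and the dorsal list 12 on the spike-in scale. The cardiac list had 5 after quantile normalization and on the spike-in scale, 1 with the replicate block and 1 to 3 with an array left out. The spiracle list had 6 on the spike-in scale, 2 with quantile normalization, median centring, array weights or the replicate block, and 1 to 2 with an array left out.

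Other named genes reversed almost only on the spike-in scale: Jhbp5 (0.39), Arl8 (0.69), CG9667 (0.92), Cox10 (1.09), Schip1 (1.19), SamDC (1.02 and 0.75), CG31715 (0.52), MED15 (1.15), oaf, CG17598 and Chi (1.19 each), Pgm2a (1.15), CG6695 (0.99), CG4554, luna, tld, C15 and Him (1.02 each), Caf1-55 (1.09), tup, egr and Hand (1.12 each) and upd1 (0.85). Exceptions were lbl after quantile normalization (-0.34) and Schip1 with array weights (0.011). Calls moved more often than signs. Over all alternatives, calls of these other results were lost 46 times, in 8 results, and gained 13 times, in 4 results. With 1 array left out, the highest limma adjusted p was 0.0956 for Hand, 0.0689 for Chi, oaf and CG17598, and 0.0675 for Him. It was 0.0549 for 1 of the 2 SamDC probe sets.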
